A study of Homo sapiens with 3 samples.

Results

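The genes described here are 36 genes of autophagy and of the lysosome, taken by gene symbol from the 61533 genes that each deposited expression table lists. All 36 symbols were found, and the rule uses the symbol alone. They fall into 3 steps: 15 genes that start an autophagosome and supply its membrane, 14 genes of the conjugation system that marks that membrane, and 7 genes of the lysosome and its transcriptional control. Polyadenylated RNA was sequenced from Hep3B, an established human liver cancer line of wild-type genotype, in 1 library for each of 3 conditions. The cultures were kept at 20% oxygen (normoxia), at 1% oxygen (hypoxia), or at 1% oxygen in the presence of oxamate sodium, which blocks lactate dehydrogenase. A duration of 48 hours is stated for oxamate alone, and neither its dose nor the duration of the other cultures was among the labels. In RNA from a whole culture, fewer cells of a kind and less RNA per cell cannot be told apart.

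Macroautophagy encloses cytoplasm in a double membrane, the autophagosome, and delivers it to the lysosome for breakdown. A protein kinase complex around ULK1 starts the process, a lipid kinase complex around PIK3C3 marks the site with phosphatidylinositol 3-phosphate, and lipid transfer proteins extend the membrane. Ubiquitin-like proteins of the LC3 and GABARAP families are then joined to phosphatidylethanolamine on that membrane, where they recruit cargo and tethering factors. The hepatocyte is a cell in which autophagy is known to break down glycogen, lipid droplets and mitochondria.

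The 3 libraries held between 24826365 and 27412147 fragments assigned to genes. All 8 hepatocyte markers were above 0 in each library, and their summed level was 7368, 3870 and 2634 FPKM (fragments per kilobase of exon, scaled per library) in normoxia, hypoxia and oxamate, most of it ALB at 5362, 2578 and 1963. By the 2-fold rule given below, 4 of the 8 were lower and 1 higher in hypoxia than in normoxia, against 8.07% and 10.8% of all genes. With oxamate 3 of the 8 were lower and 0 higher than in hypoxia alone, against 5.08% and 5.92%, and all 8 had a ratio below 1, against 51.2%. Set against normoxia, 5 of the 8 were lower with oxamate and 0 higher, against 15.3% and 15.4%. Of 5 blood cell markers, 3, 4 and 2 were at 0, CD3E and HBB in every library, and the list summed to 3.46, 0.480 and 0.479 FPKM. Of 4 endothelial markers 2 were at 0 in each library, KDR in all of them, and the sums were 0.179, 1.07 and 2.56 FPKM, nearly all of it PECAM1. Of 4 fibroblast and stellate cell markers, 2, 1 and 1 were at 0, ACTA2 in every library, with sums of 2.04, 2.73 and 0.910 FPKM. These levels differed between the libraries, and their part in the values of the 36 genes was not tested. All 5 hypoxia check genes (CA9, VEGFA, NDRG1, PDK1 and EGLN3) were at least 2-fold higher in hypoxia than in normoxia. Between hypoxia with and without oxamate 0 of the 5 passed that fold, against 5.92% of all genes higher and 5.08% lower. All 5 still had a ratio above 1 with oxamate, against 48.8% of all genes. Their counting intervals, described below, lay wholly above 1, against 34.8%. The log2 ratios ran from 0.28 to 0.80 with a median of 0.41, and 3 of the 5 lay within 1.5-fold, against 72.5%.

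Since each condition had 1 library, the spread between cultures is unknown and no test was made. Ratios are of fragments after scaling by the trimmed mean of M values. The range in brackets after a ratio is its 95% interval, exact and conditional on the 2 counts (Clopper-Pearson), and covers the error of counting alone. A gene counted as measured in a comparison when the library with more of it held at least 50 fragments, and as higher or lower when its ratio was also at least 2. Of the 36 genes, 34 were measured in every comparison. The other two were ULK2, with 3, 5 and 6 fragments in normoxia, hypoxia and oxamate, and GABARAP, with 33, 31 and 40. Both comparisons with hypoxia share its 1 library, so a value that is too low there would move them in opposite directions.

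Promoters were read from the RefSeq table of GRCh38.p14, which gives 250 bases before and 50 bases after each gene start and matched 31 of the 36 genes with 35 windows, since some genes have several starts. RB1CC1, UVRAG, ATG4D, LAMP2 and CTSB had no window and were not searched. Both strands of each window were searched for the E-box core CACGTG, which is the centre of the element that the member transcription factors TFEB and TFE3 recognise. It was found in 4 of the 35 windows (11.4%), those of LAMP1, ATG3, ATG14 and CTSD, against 7.26% of all 35116 windows. By gene the share was 12.9% of the members with a window. In the other gene lists of the pathway, described below, it ran from 0% to 41.7%, with 26.7% for the V-ATPase and 25% for lysosomal hydrolases. LAMP1 encodes the most abundant glycoprotein of the lysosomal membrane, and its window held 6 copies, a number that 1 of the 35116 windows reached. ATG3 encodes the enzyme that joins LC3 to lipid, and its window held 2 copies; at least as many were found in 0.664% of windows. The cyclic AMP response element TGACGTCA was found in 1 of the 35, the window of GABARAPL1, against 1.85% of all windows. These 5 stretches are shown because they belong to the genes whose levels are described most closely below and to the other two members with an E-box core. Motifs are in capitals, the rest is in lower case, and each stretch runs 5′ to 3′ on the strand of its gene.
LAMP1: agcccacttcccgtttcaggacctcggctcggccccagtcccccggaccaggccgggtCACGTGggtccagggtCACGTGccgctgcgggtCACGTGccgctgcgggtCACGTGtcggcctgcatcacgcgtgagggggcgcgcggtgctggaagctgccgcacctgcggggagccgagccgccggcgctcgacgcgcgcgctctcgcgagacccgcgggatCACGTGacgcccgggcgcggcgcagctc
ATG3: CACGTGccgggagagtctagtgtCACGTGa
ATG14: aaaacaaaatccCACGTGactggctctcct
CTSD: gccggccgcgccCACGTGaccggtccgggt
GABARAPL1: gggctcgcggggTGACGTCAcagcccgacg

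The LAMP1 stretch is chr13:113296989-113297238 on the plus strand, the 250 bases that end directly before the first base of the gene as the deposited tables place it. It holds 5 of the 6 cores, the first 4 of them between positions -192 and -137 from the gene start, and the sixth lies across the start itself. The ATG3 stretch is chr3:112561951-112561980 on the minus strand and runs from position -18 to 12 of the RefSeq start, inside the gene as the tables place it. The ATG14 stretch, chr14:55411834-55411863 on the minus strand, lies just before that gene in the tables. The CTSD stretch, chr11:1763957-1763986 on the minus strand, and the GABARAPL1 stretch, chr12:10212835-10212864 on the plus strand, both lie within their genes in the tables and before the RefSeq start. The core of the hypoxia response element, ACGTG or GCGTG on either strand, was present in 27 of the 35 windows, or 77.1%, against 48.4% of all windows, and in at least 1 window of 24 of the 31 genes. That share of genes, 77.4%, was not particular to the members. In the other gene lists of the pathway, described below, it ran from 33.3% to 100%, with 81.8% for autophagosome-lysosome fusion and 73.3% for the V-ATPase. Every E-box core contains ACGTG, and after leaving those matches out the shares of windows were 77.1% and 45.4%. The amino acid response element TGATGNAA was found in 0 of the 35 windows and in 3.62% of all. A match describes the letters of a window only, and no binding was measured here.

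**Figure D1:**
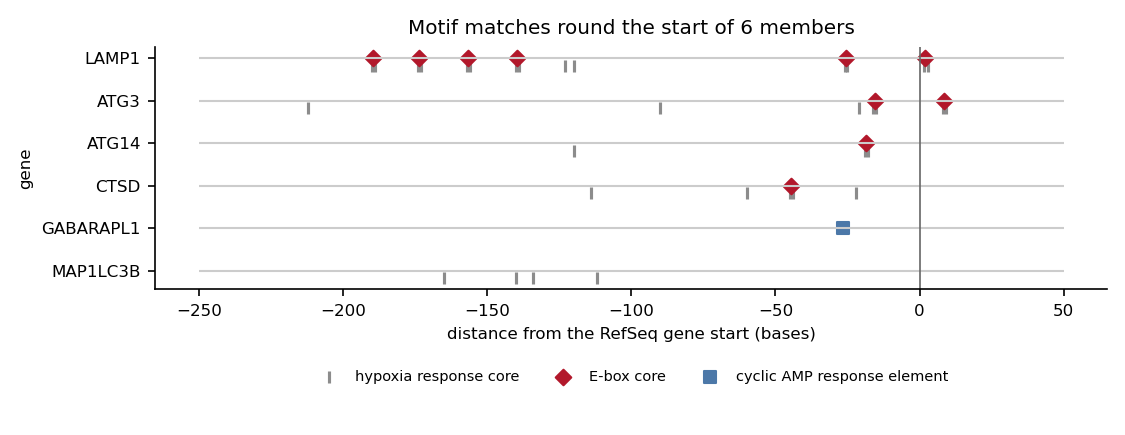
Motif matches in the RefSeq promoter windows of 6 members, with distance from the gene start in bases on the horizontal axis and 1 line per gene. Diamonds mark E-box cores, the square a cyclic AMP response element and ticks the hypoxia response core; LAMP1 shows 6 diamonds, ATG3 shows 2 and MAP1LC3B shows ticks alone.

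By level the 36 genes lay somewhat above the typical expressed gene. Their median was 7.65 FPKM in normoxia, 6.59 in hypoxia and 7.59 with oxamate, against 5.14, 4.73 and 4.72 for the 13969 genes that had at least 50 fragments in any library. At 10 FPKM or more stood 15, 13 and 15 of them. LAMP1 was first in every library, and WIPI2, an effector that reads phosphatidylinositol 3-phosphate and recruits ATG16L1, was among the first 3 in each. The lowest in each library was ULK2, followed by GABARAP, whose level is uncertain because 55.7% of its exon bases are shared with other annotated genes. GABARAPL1 ranked 34 of 36 in normoxia, 30 in hypoxia and 29 with oxamate. MAP1LC3B, which encodes the LC3 protein used as the common marker of autophagosomes, went from rank 5 to rank 3 and then 2. PIK3R4, the regulatory subunit of the lipid kinase, went the other way, from 7 to 8 and then 15. In normoxia the intervals of most neighbours within a group lay apart; those of ATG9A and ATG2A overlapped, as did those of CTSD and LAMP2, and each neighbouring pair in the row ATG4A, ATG5, ATG12, ATG4C, ATG16L1 and ATG7.

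**Figure D2:**
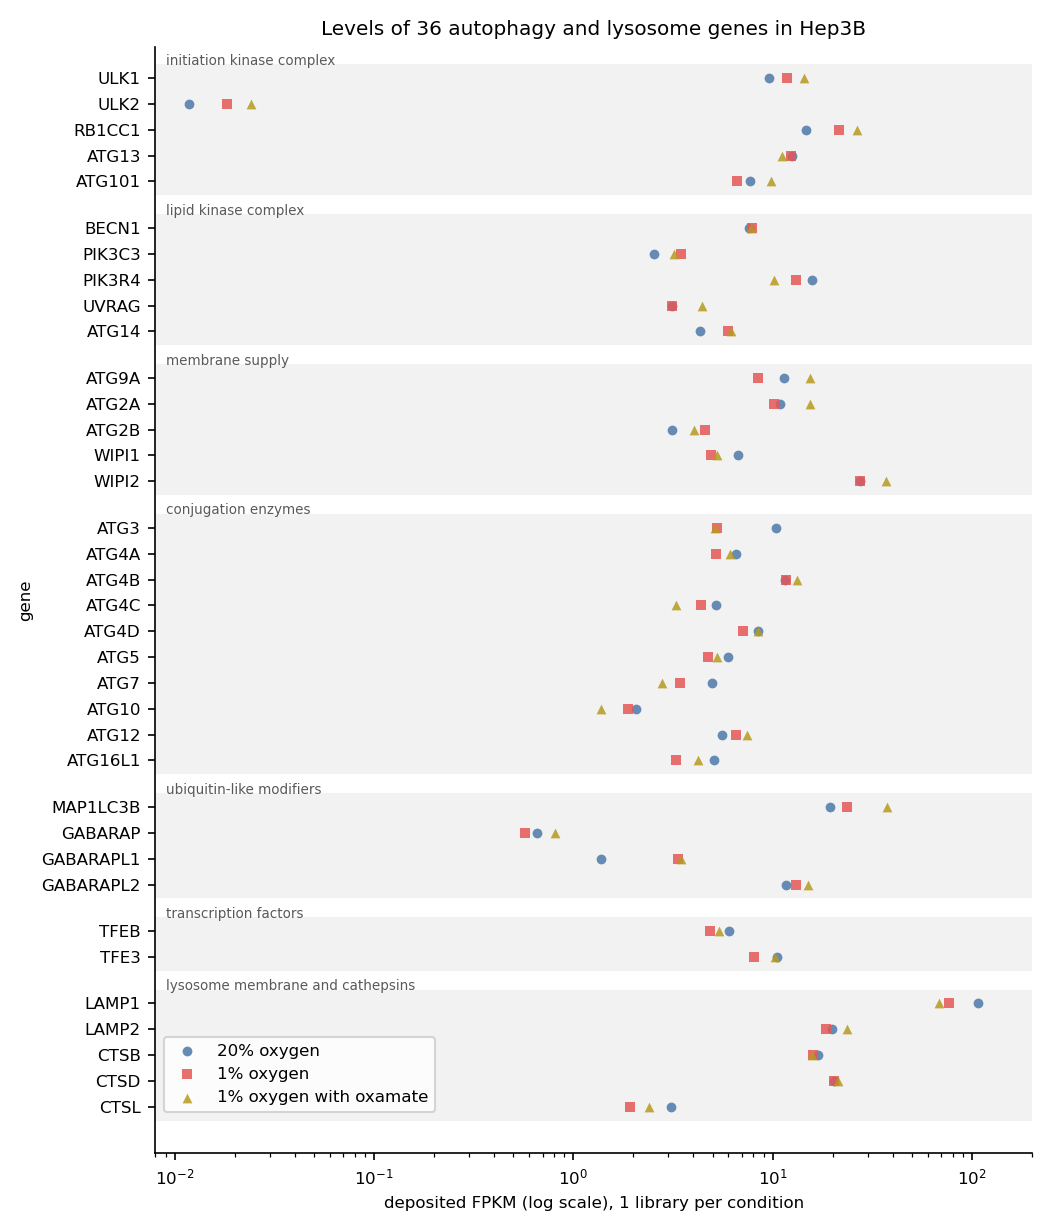
Deposited level of each of the 36 genes in the 3 libraries, in FPKM on a logarithmic axis, grouped by role; circles are 20% oxygen, squares 1% oxygen and triangles 1% oxygen with oxamate. LAMP1 lies farthest right, between 68.3 and 108 FPKM, ULK2 and GABARAP lie farthest left, and for most genes the 3 symbols lie close together.

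Between normoxia and hypoxia most of these genes differed little. Of the 34 measured, 1 was at least 2-fold higher in hypoxia and 0 were lower, against 10.8% higher and 8.07% lower of the 13549 genes measured. That gene was GABARAPL1, a member of the GABARAP branch of the ubiquitin-like modifiers, at 2.46-fold. At the other end stood ATG3, 1.95-fold lower. Within 1.5-fold lay 30 of the 34 (88.2%), against 59.4% of all genes measured. The 3 members lower by at least 1.5-fold were ATG3, CTSL and ATG16L1, where 21.9% of all genes were that much lower and 18.7% that much higher. The interval lay wholly above 1 for 9 genes, wholly below 1 for 17, and held 1 for 8, where all genes had 33.3% above and 46.9% below. The ratio was above 1 for 14 members and below for 20, against 43.3% and 56.7% of all genes, and the median log2 ratio was -0.08 over the members and -0.11 over all genes. Scaling by total fragments in place of the trimmed mean moved the median of all genes by over 0.1, to 0.04, and that of the members to 0.08, so the balance of small ratios around 1 depends on the scaling. Under it 1775 genes were higher and 751 lower, against 1468 and 1094.

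Between hypoxia with and without oxamate, 0 of the 34 were at least 2-fold higher and 0 lower, against 5.92% and 5.08% of 13733 genes. The interval lay wholly above 1 for 19 members and wholly below for 7, where all genes had 34.8% above and 36.2% below. The largest ratio was 1.83 for ATG9A, which encodes the lipid scramblase carried on the vesicles that seed the autophagosome. It was followed by MAP1LC3B at 1.60 and ATG2A, a lipid transfer protein, at 1.53. These 3 lay past 1.5-fold higher, as 13.7% of all genes did, and 13.8% were that much lower. ATG10 and ATG4C were lowest, at 1.36-fold and 1.32-fold lower. Within 1.5-fold lay 31 of the 34, against 72.5% of all genes and 74.5% of the protein-coding genes. The median log2 ratio was 0.17 over the members and -0.01 over all genes, and 23 members had a ratio above 1 and 11 below, or 21 and 13 when scaled by total fragments, against 48.8% and 51.2% of all genes.

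Set against normoxia, hypoxia with oxamate gave 1 of 34 members at least 2-fold higher and 0 lower, against 15.4% and 15.3% of 13597 genes. GABARAPL1 was again the member past that fold, at 2.56. MAP1LC3B stood just inside it at 1.97-fold higher and ATG3 at 1.997-fold lower, with a log2 ratio of -0.997, just short of the limit. Within 1.5-fold lay 25 of the 34, against 47% of all genes and 48.7% of the protein-coding genes. At least 1.5-fold higher were 4 members, RB1CC1 and ULK1 beside GABARAPL1 and MAP1LC3B, and 5 were that much lower, ATG3, ATG7, ATG4C, LAMP1 and PIK3R4, where all genes had 24.3% and 28.7%. The ratio was above 1 for 19 members and below for 15, or 22 and 12 by total fragments, against 45% and 55% of all genes. The interval was wholly above 1 for 17 members and wholly below for 13, against 37.3% and 47.1%.

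**Figure D3:**
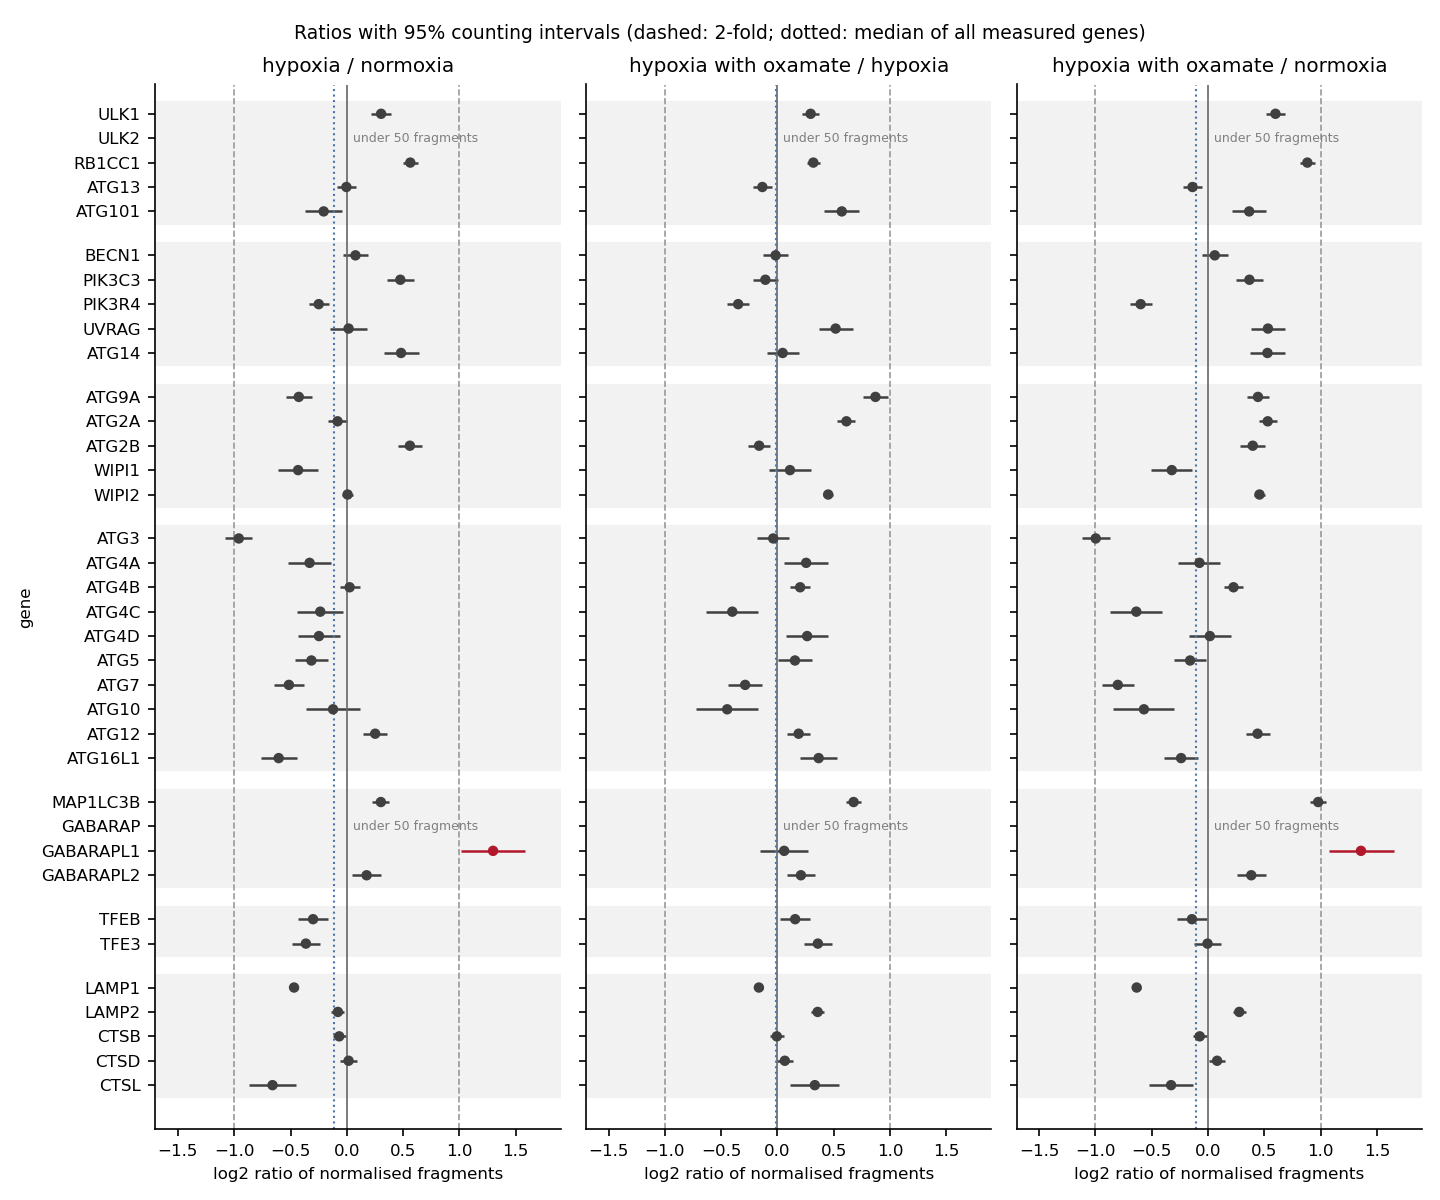
Log2 ratio of normalised fragments for each member in the 3 comparisons, with bars for the 95% counting interval, dashed lines at 2-fold and a dotted line at the median of all measured genes. GABARAPL1, in red, is the only point past a dashed line, in the first panel and in the third, ATG3 lies beside the lower line in both of those, and ULK2 and GABARAP have no point because they had under 50 fragments.

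**Figure D4:**
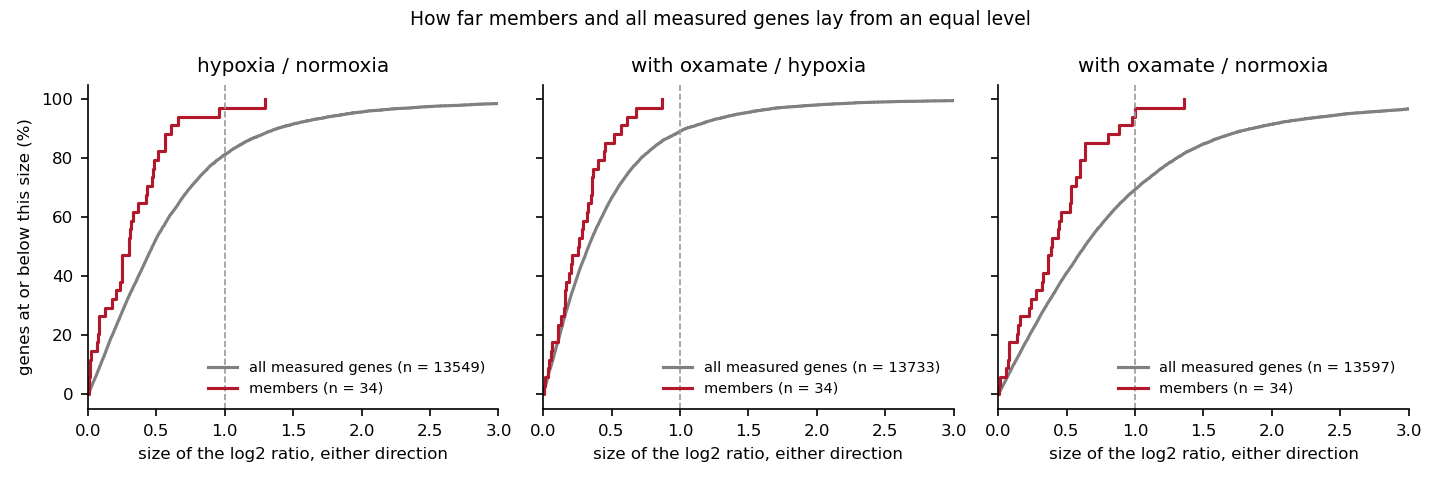
Cumulative share of genes, in percent, by the size of the log2 ratio in either direction, for the 34 measured members (red) and all genes measured (grey) in each comparison. At the dashed line of 2-fold the red curve stands above the grey one in all 3 panels.

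Among the genes of initiation and membrane supply, 8 of 14 had a ratio above 1 in hypoxia against normoxia, where 43.3% of all genes did. The count was 10 by total fragments and 6 by the median of ratios, so the group had no direction that held. With oxamate 9 of 14 stood above hypoxia (8 by total fragments), against 48.8% of all genes. Above normoxia stood 11 of 14 under each of the 4 scalings tried, against 45% of all genes by the trimmed mean. The median log2 ratio against normoxia was 0.42, while that of all genes was -0.11.

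The kinase complex that starts autophagy holds ULK1 or its paralog ULK2 together with RB1CC1, ATG13 and ATG101. RB1CC1, the scaffold of the complex that is also called FIP200, was listed at 14.7, 21.4 and 26.6 FPKM, on 2870, 4538 and 5115 fragments. It was 1.48-fold higher in hypoxia than in normoxia (1.41 to 1.55), 1.25-fold higher again with oxamate (1.198 to 1.298), and 1.84-fold above normoxia there (1.76 to 1.93). ULK1, the kinase itself, lies on chromosome 12 from 131894622 to 131923150 (hg38) and took the same order, at 9.63, 11.8 and 14.3 FPKM. Its ratios were 1.23 (1.16 to 1.31), 1.23 (1.16 to 1.295) and, from normoxia to oxamate, 1.51 (1.43 to 1.61). For both genes normoxia was the lowest library and oxamate the highest. ATG13, the adaptor that ties the kinase to the scaffold, was flat by comparison, at 12.4, 12.3 and 11.1 FPKM. Its interval held 1 between normoxia and hypoxia (0.941 to 1.06) and lay below 1 with oxamate against hypoxia, 1.10-fold lower (1.03 to 1.17). ATG101, the partner that stabilises ATG13, was lowest in hypoxia, at 7.73, 6.63 and 9.79 FPKM. It was 1.15-fold lower in hypoxia than in normoxia (1.03 to 1.29) and 1.49-fold higher with oxamate than without (1.33 to 1.66). A share of 19.2% of its exon bases overlaps a gene on the other strand, itself listed at 0 in each library. The sources used here do not say whether fragments were counted by strand.

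The lipid kinase complex makes the phosphatidylinositol 3-phosphate that marks the growing membrane. Its catalytic subunit PIK3C3 was at 2.53, 3.48 and 3.21 FPKM, 1.39-fold higher in hypoxia than in normoxia (1.28 to 1.51), and its interval held 1 between the hypoxia libraries. The exons of PIK3C3 are the longest among the members, at 15154 bases. Its log2 ratio of hypoxia against normoxia, 0.47, fell to 0.16 with a gene length trend taken out, outside that interval. ATG14, the subunit that directs the complex to autophagy, was at 4.34, 5.997 and 6.15 FPKM. It was 1.40-fold higher in hypoxia than in normoxia (1.25 to 1.56), with a ratio of 1.03 between the hypoxia libraries (0.935 to 1.14). PIK3R4, the regulatory subunit, went in the other direction, at 15.7, 13.04 and 10.2 FPKM. It was 1.19-fold lower in hypoxia (1.12 to 1.26), 1.27-fold lower again with oxamate (1.19 to 1.37), and 1.51-fold lower there than in normoxia (1.42 to 1.62). UVRAG, which replaces ATG14 in a second form of the complex that acts on endosomes, was equal in normoxia and hypoxia at 3.12 FPKM and stood at 4.44 with oxamate, 1.43-fold above hypoxia (1.29 to 1.59). BECN1, the core subunit beclin 1, was nearly level, at 7.57, 7.90 and 7.76 FPKM, and its interval held 1 in all 3 comparisons. Exons of BECN1 share 17.1% of their bases with 2 genes on the other strand, of which PSME3 is the more abundant, at 8524, 4653 and 3425 fragments. So among the subunits of both forms of the complex, 2 were higher in hypoxia than in normoxia beyond counting error by the trimmed mean, PIK3C3 by an amount that depends on the scaling. Of the others 1 was lower, and 2 could not be told from equal.

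Membrane supply rests on ATG9A, the lipid transfer proteins ATG2A and ATG2B, and the WIPI proteins that bind the marked membrane. ATG9A lies on chromosome 2 from 219219380 to 219229717 and had 1391, 1107 and 1829 fragments, or 11.4, 8.43 and 15.3 FPKM. It was lowest in hypoxia, 1.34-fold below normoxia (1.24 to 1.46), and 1.83-fold higher with oxamate than without (1.70 to 1.97), which also put it 1.36-fold above normoxia (1.27 to 1.46). A share of 38.8% of its exon bases overlaps another annotated gene on the same strand, so its value is uncertain; that gene was listed with 5, 1 and 5 fragments. ATG2A and ATG2B are paralogs with the same role, and their values differed in order. ATG2A was at 10.8, 10.1 and 15.4 FPKM, with an interval that held 1 between normoxia and hypoxia and a ratio of 1.53 with oxamate against hypoxia (1.45 to 1.62). ATG2B was at 3.12, 4.56 and 4.04 FPKM, 1.47-fold higher in hypoxia than in normoxia (1.37 to 1.59) and 1.12-fold lower with oxamate than without (1.044 to 1.201). Its exons are also long, at 14256 bases, and its log2 ratio of hypoxia against normoxia fell from 0.56 to 0.25 with a gene length trend taken out. WIPI2 stood at 27.6, 27.4 and 37.2 FPKM, 1.37-fold higher with oxamate than in hypoxia alone (1.32 to 1.41). WIPI1, its paralog, was highest in normoxia, at 6.66, 4.88 and 5.24 FPKM, and 1.35-fold lower in hypoxia (1.19 to 1.53). Exons of WIPI1 share 28.1% of their bases with other genes, of which ARSG on the other strand is the most abundant, at 108, 42 and 34 fragments.

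In the conjugation step, among the 10 enzymes and scaffold genes, 8 had a ratio below 1 in hypoxia against normoxia (7 by total fragments or with a gene length trend taken out), and 7 intervals lay wholly below 1, where 56.7% and 46.9% of all genes did. ATG12 and ATG4B were the other two of the 10. All 3 measured ubiquitin-like modifiers had a ratio above 1 under each of the 4 scalings. By the trimmed mean their intervals lay wholly above 1, where 43.3% of all genes had a ratio above 1 and 33.3% such an interval. With oxamate against hypoxia both the enzymes and the modifiers had a median log2 ratio above 0, at 0.17 and 0.21. No difference between enzymes and modifiers was tested.

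ATG3 is the conjugating enzyme that hands LC3 and GABARAP proteins to phosphatidylethanolamine, and its E-box cores are among the sequences printed above. It lies on chromosome 3 from 112532510 to 112562046 and had 1629, 896 and 789 fragments, or 10.4, 5.27 and 5.11 FPKM. Normoxia stood apart from both libraries at 1% oxygen. The gene was 1.95-fold lower in hypoxia (1.79 to 2.11) and 1.997-fold lower with oxamate than in normoxia (1.83 to 2.18), while the interval between the hypoxia libraries held 1 (0.884 to 1.07). ATG7, the activating enzyme that loads ATG3 and ATG10, had 1123, 841 and 623 fragments, or 4.94, 3.42 and 2.79 FPKM. It was 1.43-fold lower in hypoxia (1.31 to 1.56), 1.22-fold lower again with oxamate (1.10 to 1.36) and 1.74-fold lower there than in normoxia (1.58 to 1.93). Of its exon bases 18.1% overlap VGLL4 on the other strand, which had 1351, 2068 and 2238 fragments. ATG10, the conjugating enzyme that joins ATG12 to ATG5, was the lowest of the enzymes, at 2.07, 1.88 and 1.37 FPKM. Its interval held 1 between normoxia and hypoxia, and it was 1.36-fold lower with oxamate than without (1.13 to 1.65). For the activating enzyme and both conjugating enzymes, oxamate was thus the lowest library, although for ATG3 not beyond counting error.

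ATG12, ATG5 and ATG16L1 form the complex that places LC3 on the membrane. ATG12, itself a ubiquitin-like protein, was at 5.56, 6.55 and 7.42 FPKM, 1.19-fold higher in hypoxia (1.11 to 1.28) and 1.36-fold above normoxia with oxamate (1.26 to 1.46). ATG5, its acceptor, was at 5.95, 4.73 and 5.24 FPKM and 1.24-fold lower in hypoxia (1.13 to 1.37). ATG16L1, which directs the complex to the membrane through WIPI2, was at 5.05, 3.28 and 4.20 FPKM. It was 1.52-fold lower in hypoxia than in normoxia (1.36 to 1.70) and 1.29-fold higher with oxamate than without (1.15 to 1.45). The partners of 1 complex were therefore not in the same order across the libraries. The ATG4 proteases trim newly made LC3 and release it from lipid. ATG4B, the most active of them, was at 11.5, 11.6 and 13.3 FPKM, and ATG4D at 8.46, 7.06 and 8.42 FPKM, with 15.0% of its exon bases shared with KRI1 on the other strand. ATG4A was at 6.57, 5.17 and 6.13 FPKM, 1.26-fold lower in hypoxia (1.10 to 1.44). ATG4C was lowest with oxamate, at 5.18, 4.35 and 3.27 FPKM, 1.32-fold below hypoxia (1.12 to 1.55) and 1.56-fold below normoxia (1.33 to 1.82). ATG4B, ATG4A and ATG4D were higher with oxamate than in hypoxia alone, with intervals wholly above 1, and ATG4C was lower.

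GABARAPL1, a ubiquitin-like modifier that acts late in autophagosome closure and fusion, lies on chromosome 12 from 10212458 to 10223128. Its fragments numbered 144 in normoxia, 379 in hypoxia and 357 under oxamate, or 1.38, 3.36 and 3.48 FPKM. Both libraries at 1% oxygen stood above the one at 20%, and they did not differ from each other beyond counting error. The ratio was 2.46 between hypoxia and normoxia (2.03 to 3.00), 1.04 between oxamate and hypoxia (0.899 to 1.21), and 2.56 between oxamate and normoxia (2.11 to 3.13). The whole interval lay above 2 in both comparisons with normoxia. On deposited FPKM with a pseudocount of 1 the log2 ratios were 0.87 and 0.91, below the 2-fold limit, because such a pseudocount is large beside a level of 1.38. An antisense gene that covers 8.05% of its exon bases in the annotation was listed at 0 in each library.

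MAP1LC3B lies on chromosome 16 from 87383953 to 87404779 and had 2514, 3316 and 4789 fragments, or 19.4, 23.7 and 37.6 FPKM. The libraries stood in the order normoxia, hypoxia, oxamate, with no intervals overlapping. It was 1.23-fold higher in hypoxia (1.17 to 1.299), 1.60-fold higher again with oxamate (1.53 to 1.67), and 1.97-fold above normoxia there (1.88 to 2.07). It passed 2-fold in that last comparison when scaled by total fragments (log2 1.07) and with the gene length trend taken out (1.07). The near-identical gene MAP1LC3B2 was listed with 59, 87 and 133 fragments, and the sources used here do not say how fragments that fit both were divided, so both values are uncertain. GABARAPL2, also called GATE-16, was at 11.6, 13.02 and 15.0 FPKM, 1.13-fold higher in hypoxia (1.03 to 1.23) and 1.304-fold above normoxia with oxamate (1.19 to 1.43). GABARAP, the founding gene of the branch, was listed at 0.658, 0.571 and 0.811 FPKM on its 33, 31 and 40 fragments. Of its exon bases 55.7% are shared with other annotated genes, 1 of them on the same strand, so its level is uncertain and no ratio is given.

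Of the 7 lysosome genes, 6 had a ratio below 1 in hypoxia against normoxia, with intervals wholly below 1, where 56.7% and 46.9% of all genes did. The count below 1 was 4 by total fragments and 7 by the median of ratios. With oxamate 5 of the 7 stood above hypoxia under each of the 4 scalings, against 48.8% of all genes by the trimmed mean. TFEB and TFE3 are related transcription factors that drive autophagy and lysosome genes and are controlled mainly through their place in the cell, which RNA levels do not show. TFEB was at 6.003, 4.83 and 5.35 FPKM, 1.23-fold lower in hypoxia than in normoxia (1.13 to 1.35) and 1.11-fold higher with oxamate than without (1.02 to 1.22). TFE3 was at 10.5, 8.05 and 10.3 FPKM, 1.29-fold lower in hypoxia (1.18 to 1.40) and 1.28-fold higher with oxamate than without (1.17 to 1.40). Both were lowest in the hypoxia library.

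LAMP1 lies on chromosome 13 from 113297239 to 113323672 and had 15901, 12291 and 9909 fragments, or 108, 77.0 and 68.3 FPKM. Normoxia was the highest library and oxamate the lowest. It was 1.38-fold lower in hypoxia (1.35 to 1.42), 1.12-fold lower again with oxamate (1.09 to 1.15), and 1.55-fold lower there than in normoxia (1.51 to 1.59). LAMP2, the other main membrane glycoprotein, also serves as a receptor in chaperone-mediated autophagy. It was 1.06-fold lower in hypoxia than in normoxia (1.02 to 1.10), although its side of 1 changed with the setting. With oxamate LAMP2 did not follow LAMP1. LAMP2 was at 19.8, 18.6 and 23.6 FPKM, with a ratio of 1.28 between oxamate and hypoxia (1.23 to 1.33) and 1.21 between oxamate and normoxia (1.17 to 1.26). Cathepsins are the proteases of the lysosome, and the 3 members differed. CTSL was at 3.07, 1.92 and 2.41 FPKM, 1.58-fold lower in hypoxia (1.37 to 1.82) and 1.26-fold higher with oxamate than without (1.08 to 1.46). CTSB was nearly level at 16.9, 15.9 and 15.8 FPKM, and so was CTSD at 20.3, 20.3 and 21.2. For CTSD 52.7% of exon bases are shared with other annotated genes, so its level is uncertain; 2 of these lie on the same strand, and they were listed with 0 in each library and with 4, 13 and 15 fragments.

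Other genes of the pathway were taken from lists of their own. By the 2-fold rule, 10.8% of all genes measured were higher and 8.07% lower in hypoxia against normoxia. Between the hypoxia libraries these shares were 5.92% and 5.08%. The proton pump of the lysosome, the V-ATPase, had 17 measured genes, and 16 of them had a ratio below 1 in hypoxia against normoxia (15 by total fragments, 17 with the length trend taken out), while 56.7% of all genes did. The median log2 ratio was -0.48. By the 2-fold rule 1 was lower, ATP6V0C at 2.41-fold (1.93 to 3.02), an uncertain value because 72.1% of its exons overlap other genes, and 0 were higher. ATP6V0E2 was 1.94-fold lower (1.77 to 2.13), and ATP6V0A1 at 1.09-fold higher (1.03 to 1.15) was the one above 1. With oxamate 13 of the 17 stood above hypoxia (14 with the length trend taken out), against 48.8% of all genes, with a median of 0.20 and 0 past 2-fold. ATP6V0E1, a small membrane subunit, was at 51.5, 36.5 and 53.8 FPKM and 1.48-fold higher with oxamate than without (1.39 to 1.58). ATP6V0B was 1.45-fold higher (1.35 to 1.55) and ATP6V0E2 1.54-fold lower (1.36 to 1.74).

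Of 26 lysosomal hydrolase genes, 1 was higher and 1 lower by the rule in hypoxia, against 10.8% and 8.07% of all genes. The median log2 ratio of the list was -0.29. NEU1, the lysosomal sialidase, was at 114, 40.6 and 61.8 FPKM, 2.77-fold lower in hypoxia (2.69 to 2.86) and 1.53-fold higher with oxamate than without (1.48 to 1.59). IDS, which encodes iduronate 2-sulfatase, was counted at 41, 122 and 365 fragments, 2.78-fold higher in hypoxia (1.94 to 4.06) and 3.31-fold higher again with oxamate (2.69 to 4.10); 17.4% of its exon bases overlap other genes. GAA, the enzyme of lysosomal glycogen breakdown, was 1.80-fold lower with oxamate than without (1.69 to 1.91). The lowest gene of the list was another, at a log2 ratio of -1.11. Between the hypoxia libraries 1 of the 26 was higher by the rule and 1 lower, against 5.92% and 5.08% of all genes. The median of the list was -0.10 for oxamate against hypoxia and -0.51 for oxamate against normoxia.

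Cargo receptors link what is to be degraded to LC3 and GABARAP proteins. Of 10 measured, 1 was higher by the rule in hypoxia and 0 lower, against 10.8% and 8.07% of all genes. OPTN, a receptor for mitochondria and bacteria, was at 8.71, 23.7 and 29.3 FPKM, 2.75-fold higher in hypoxia (2.57 to 2.94) and 3.42-fold above normoxia with oxamate (3.198 to 3.65). NCOA4, the receptor for ferritin, was 1.95-fold higher in hypoxia (1.8996 to 2.01) and reached 2-fold under scaling by total fragments, where 2 receptors passed. SQSTM1, or p62, was lowest in hypoxia, at 40.9, 26.0 and 43.7 FPKM. It was 1.56-fold lower there than in normoxia (1.504 to 1.61) and 1.69-fold higher with oxamate than without (1.64 to 1.75), and 22.04% of its exon bases overlap other genes. TAX1BP1 was 1.49-fold higher with oxamate than without (1.44 to 1.54), and CALCOCO2 was 1.32-fold lower in hypoxia than in normoxia (1.23 to 1.41). The list had medians of -0.05 in hypoxia against normoxia, -0.09 between the hypoxia libraries, where 0 passed the rule, and 0.35 in oxamate against normoxia.

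Among 9 measured regulators of autophagosome formation, EI24, an endoplasmic reticulum protein needed for the process, was lower by the rule in hypoxia, 2.42-fold (2.29 to 2.56), at 46.1, 18.9 and 16.6 FPKM, and 0 were higher. Of all genes 8.07% were lower and 10.8% higher in that comparison. With oxamate 0 passed, and the ends of the list were RUBCN, an inhibitor of the lipid kinase complex, at 1.75-fold higher (1.55 to 1.98), and AMBRA1, an activator of it, at 1.58-fold lower (1.41 to 1.76). All 15 genes of autophagosome-lysosome fusion lay inside 2-fold in both of these comparisons. EPG5, a tether, was 1.52-fold higher in hypoxia (1.42 to 1.63) and VPS18, a subunit of the tethering complexes, 1.47-fold lower (1.36 to 1.60). PLEKHM1, an adaptor that binds LC3 and the small GTPase RAB7A, was 1.52-fold higher with oxamate than without (1.40 to 1.66), and the fusion protein STX17 was 1.40-fold lower (1.27 to 1.55). Of 5 measured paralogs of members, ATG16L2 was higher by the rule in hypoxia, 2.05-fold (1.53 to 2.76) on 69, 151 and 116 fragments, and lay inside 2-fold with the length trend taken out. WDR45B, a relative of the WIPI genes, was at 10.7, 15.1 and 20.3 FPKM, 1.92-fold above normoxia with oxamate (1.78 to 2.08). Of 13 other genes of the lysosomal membrane, TMEM192 was lower by the rule in hypoxia, 2.17-fold (1.97 to 2.40), and MCOLN1, the calcium channel, was 1.79-fold lower (1.63 to 1.97). Scaling by total fragments gave 0 lower and moved the median log2 ratio of this list from -0.20 to -0.05. With oxamate 0 of the 13 passed, and NPC1, which exports cholesterol from the lysosome, was 1.84-fold higher than in hypoxia alone (1.73 to 1.95), and LAPTM4B 1.79-fold lower (1.72 to 1.86).

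**Figure D5:**
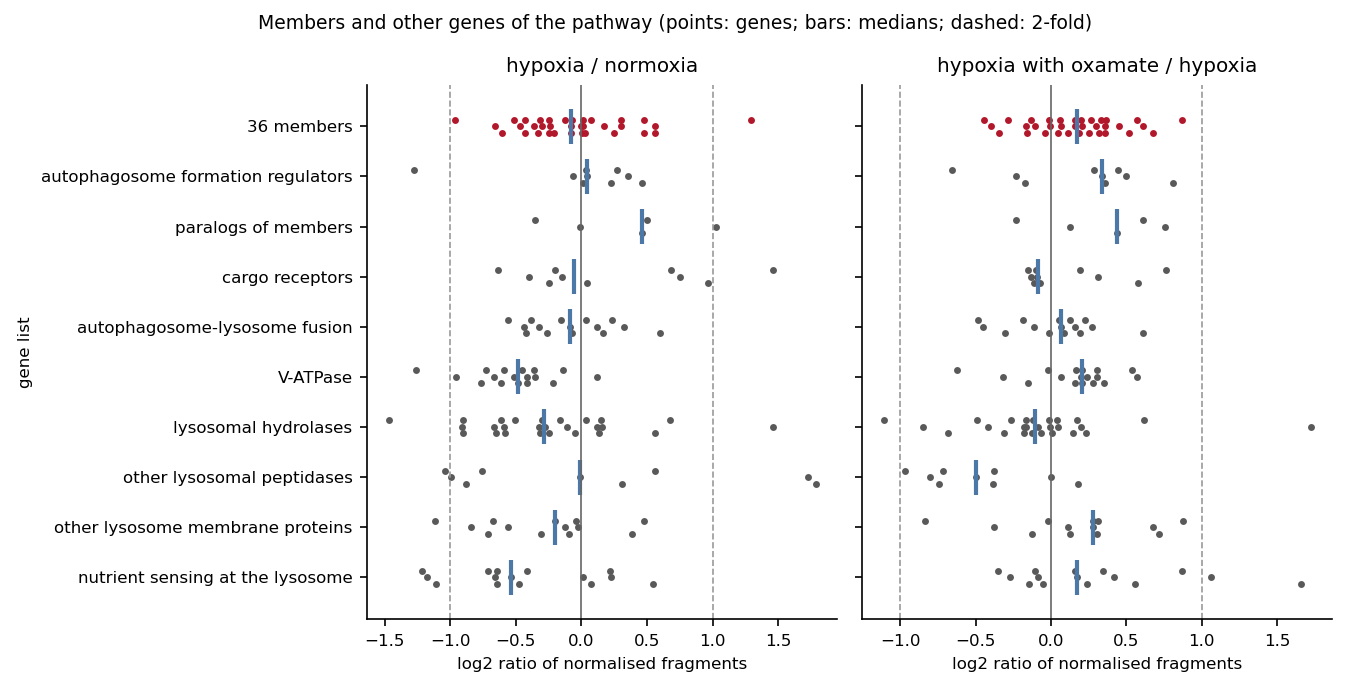
Log2 ratio of normalised fragments for the members (red) and 9 other gene lists of the pathway (grey), in hypoxia against normoxia on the left and in oxamate against hypoxia on the right; each point is a gene, blue bars are medians and dashed lines mark 2-fold. On the left 16 of 17 V-ATPase points lie below 0, or 15 when scaled by total fragments, and on the right 13 lie above 0.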

How the data were processed

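Polyadenylated RNA of 3 Hep3B cultures, 1 per condition, was sequenced and deposited as 1 table of 61533 genes per library. The deposited values are FPKM computed by the authors per the tables' gene lengths; the file headers name the library and no unit, and the unit was inferred from the values. The submitters' processing notes name HISAT2 2.0.5, featureCounts 1.5.0-p3, StringTie 1.3.3b, edgeR 3.22.5 and build hg38, without roles. In every library FPKM times gene length was a whole multiple of 1 constant for 100% of genes above 0 (tolerance 0.01), so fragments were recovered and used in place of the counts for which the comparisons had been planned. Libraries were brought to a common scale with a trimmed mean of M values (30% of log ratios and 5% of mean levels trimmed) over 21987 genes with at least 10 fragments in all, giving factors of 0.943, 1.05 and 1.01. The constants of the deposited FPKM imply similar factors beyond depth, 0.938, 1.06 and 1.02. Deposited FPKM is therefore not a scaling independent of the one used here. Fitted ratios used a prior count of 0.5. Exon overlaps came from GENCODE 29, in which 58356 listed genes were matched, and 8 of the 36 members share over 10% of their exon bases with another gene. Promoter windows came from RefSeq.

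No column belonged to another series (0 columns left out). The members and lists were chosen with earlier results of these data known. All 36 members are described, and in each other list the 2 highest and 2 lowest measured genes of a comparison could be named. The steps were tested on simulated counts. Alternatives were scaling by total fragments, by the median of ratios and after removal of a gene length trend, deposited FPKM with a pseudocount of 0.1 or 1, other minimum fragments and folds, and leaving out genes with shared exons. Software was Python 3.11.15 with numpy 2.4.6, pandas 2.3.3, scipy 1.17.1 and matplotlib 3.10.9.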

Additional observations from a re-analysis of the deposited data

How the results depend on the processing

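With 1 library per condition, the counts of members past the rule rest on thresholds and counting depth alone, and the spread between cultures is unknown. No paired analysis was possible because each condition had 1 library. In hypoxia against normoxia the 1 member higher became 0 on deposited FPKM with a pseudocount of 1, and a rule of 1.5-fold gave 3 members lower in place of 0. Between the hypoxia libraries a rule of 1.5-fold gave 3 members higher in place of 0. For oxamate against normoxia the 1 member higher became 2 by total fragments and 2 after removal of the gene length trend (both with MAP1LC3B), 2 with no minimum (with ULK2, on 3 and 6 fragments), 4 at 1.5-fold and 0 with a pseudocount of 1. The 0 members lower became 1 by the median of ratios, by FPKM with a pseudocount of 0.1 and after removal of the length trend, in each case ATG3, and 5 at 1.5-fold. Of 1056 recomputed values, 981 stayed inside the counting interval of the value reported and 75 lay outside it. Settings that change only the minimum, the fold or the genes kept leave each ratio as it was. Many of the 981 were therefore fixed in advance, and their number does not measure stability. GABARAPL1, the only member past the rule, kept its sign in both comparisons with normoxia. Over all genes, hypoxia against normoxia gave 1468 higher and 1094 lower, against 1775 and 751 by total fragments, 559 and 581 with a pseudocount of 1, 3618 and 1773 with a minimum of 10 fragments, 9197 and 4618 with none, and 944 and 665 where the entire interval had to lie past 2-fold. Oxamate against hypoxia gave 813 and 697, against 722 and 802, 324 and 187, 2079 and 1867, 6549 and 6034, and 491 and 307 in the same order. Oxamate against normoxia gave 2090 and 2080, against 2320 and 1781, 1025 and 1325, 4350 and 2911, 10359 and 5638, and 1538 and 1462. At 1.5-fold the 3 comparisons gave 2530 and 2970, 1880 and 1895, and 3306 and 3905. Total fragments moved the share of higher among called genes from 57.3% to 70.3% in the first comparison, and a pseudocount of 1 moved it from 53.8% to 63.4% in the second. The side of 1 changed with the setting for ATG10, ATG13, ATG2A, ATG4D, CTSB, CTSD, LAMP2, UVRAG and WIPI2 in hypoxia against normoxia, for ATG14 and GABARAPL1 between the hypoxia libraries, and for ATG4A, ATG4D, CTSB and TFE3 in oxamate against normoxia.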

Other observations

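Genes that sense nutrients at the lysosome lie beside the 36 described above in the pathway. The 15 on this list include those of the Rag and Ragulator complexes and the kinase mTOR, which holds autophagy back when amino acids are plentiful. In hypoxia against normoxia 3 of 15 were at least 2-fold lower and 0 higher, against 8.07% and 10.8% of all genes, and scaling by total fragments gave 2 lower. The median log2 ratio was -0.53. The 3 were MLST8, a subunit of the mTOR complexes, at 2.32-fold lower (2.14 to 2.53), RRAGC, a Rag GTPase, at 2.26-fold lower (1.99 to 2.56), and RRAGD, its paralog, at 2.17-fold lower (1.41 to 3.40), which was named after its value was seen. With oxamate against hypoxia 2 were higher and 0 lower, against 5.92% and 5.08% of all genes. These were RRAGD at 3.18-fold (2.12 to 4.89) on 67, 33 and 95 fragments in normoxia, hypoxia and oxamate, and RRAGC at 2.08-fold (1.84 to 2.37), while scaling by total fragments left 1. Of the exon bases of RRAGC 22.9% overlap other genes.

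Of 9 further lysosomal peptidases, 2 were higher and 1 lower in hypoxia, against 10.8% and 8.07% of all genes. Total fragments gave 0 lower, the median of ratios 2 and removal of the length trend 3. CTSK, cathepsin K, had 91, 337 and 304 fragments and was 3.46-fold higher (2.74 to 4.41), and CTSS, cathepsin S, had 40, 143 and 99 and was 3.34-fold higher (2.34 to 4.87). CTSH, cathepsin H, was 2.06-fold lower (1.91 to 2.22). With oxamate against hypoxia 8 of the 9 had a ratio below 1, against 51.2% of all genes. The median was -0.50 and 0 passed the rule, or 1 by total fragments, and CTSO was lowest, 1.97-fold (1.60 to 2.43). Among transcription factors of autophagy genes outside the 36, FOXO3 was 1.76-fold higher with oxamate than without (1.64 to 1.898). ZKSCAN3, a repressor of autophagy genes, was 1.82-fold lower (1.504 to 2.21). By the rule 1 of the 4 measured was higher, where 5.92% of all genes were. That gene was MITF, a relative of TFEB, with 21, 18 and 51 fragments and 3.13-fold higher with oxamate than without (1.80 to 5.70).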
